A study of Mus musculus with 10 samples.

Results

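Socs2, Mrpl42, Cradd, Ube2n, Nudt4 and Plxnc1 are protein-coding genes on mouse chromosome 10 that lie around the locus of linc1253, a long intergenic non-coding RNA of embryonic stem (ES) cells. These 6 genes, of 22713 gene IDs in the deposited tables, were chosen by symbol because of their position, to ask whether depletion of Oct4 or Pontin or knockdown of linc1253 was accompanied by a difference in the genes beside it. mRNA sequencing gave 8 libraries. Pontinf/f; CreER ES cells, in which 4-hydroxytamoxifen (OHT) activates Cre and removes the floxed Pontin alleles, gave 1 library before treatment (WT) and 1 library each at 3 days (OHT 3D) and 4 days (OHT 4D) of OHT. ZHBTc4 ES cells, in which tetracycline (Tc) shuts off the only source of Oct4, gave 1 library at 2 days (Tc 2D). ZHBTc4 cells without tetracycline, at 4 days after lentiviral infection, gave 2 libraries with a control shRNA against luciferase and 2 with an shRNA against linc1253, and the labels do not say whether these pairs came from separate cultures, so that their spread may be technical. ChIP sequencing of ZHBTc4 cells gave 1 library with an antibody against Pontin and 1 with an antibody against GFP as the control. The WT library carries the floxed alleles and the CreER transgene as the OHT libraries do, and per the methods ES cells were grown with or without fibroblast feeders.

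Long non-coding RNAs can act in cis, on genes of the same chromosome region, or in trans, on genes elsewhere, and a test of action in cis starts with the genes that border the locus. Oct4 (Pou5f1) is a transcription factor that ES cells need to remain pluripotent, and without it they turn towards trophectoderm. Pontin (Ruvbl1) is an AAA+ ATPase of several chromatin-remodelling and acetyltransferase complexes.

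The 2 genes that border the locus are Socs2 and Mrpl42. The interval between them, chr10:94879815-94943439 on the NCBIM37 build, spans 63.6 kb, holds linc1253 and contains 0 annotated protein-coding genes. The paper places linc1253 within the interval and away from both of its ends. Distances are given here from the ends of the interval, so they are shorter than those to linc1253. What became of linc1253 itself was not analysed here. Socs2 (ENSMUSG00000020027, chromosome 10, 94847996 to 94879814, minus strand) ends at the interval with its annotated start site, so that its promoter lies inside the interval. Mrpl42 (ENSMUSG00000062981, 94943440 to 94964561, minus strand) meets the interval with its 3′ end and has its start site 21.1 kb farther away. Cradd (ENSMUSG00000045867, 94637380 to 94786767, minus strand) lies 93.0 kb beyond the Socs2 side. Plxnc1 (ENSMUSG00000074785, 94253617 to 94407212, minus strand) lies on the same side at 473 kb. On the Mrpl42 side, Ube2n (ENSMUSG00000074781, 94977779 to 95008292, plus strand) starts 34.3 kb from the interval. Nudt4 (ENSMUSG00000020029, 95009641 to 95026801, minus strand) lies at 66.2 kb and converges on Ube2n, with 1348 bases between their 3′ ends. No annotated gene on the other strand overlapped any of the 6. A processed pseudogene of Ube2n is annotated elsewhere, so reads of Ube2n may be shared with it.

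The 250 bases upstream of the start site are shown for the 2 genes that border the interval and for the next 2 on the Mrpl42 side. These 4 stretches are shown because the ChIP reads were counted over these promoters and because the 4 genes differed in their values at Tc 2D. They were read from the NCBIM37 genome on the strand of each gene. Capitals mark matches on either strand to GGGCGG, the GC box that binds Sp1 and related factors.

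Socs2, chr10:94879815-94880064, minus strand: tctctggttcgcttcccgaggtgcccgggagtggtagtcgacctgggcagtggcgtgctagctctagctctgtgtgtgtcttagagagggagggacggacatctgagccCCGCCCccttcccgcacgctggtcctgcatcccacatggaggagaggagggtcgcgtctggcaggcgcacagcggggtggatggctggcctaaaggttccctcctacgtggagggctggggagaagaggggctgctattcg
Mrpl42, chr10:94964562-94964811, minus strand: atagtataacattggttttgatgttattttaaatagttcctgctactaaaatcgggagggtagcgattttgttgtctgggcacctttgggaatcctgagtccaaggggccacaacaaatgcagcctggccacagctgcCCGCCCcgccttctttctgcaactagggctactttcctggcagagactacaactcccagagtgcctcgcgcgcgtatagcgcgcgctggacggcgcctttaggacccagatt
Ube2n, chr10:94977529-94977778, plus strand: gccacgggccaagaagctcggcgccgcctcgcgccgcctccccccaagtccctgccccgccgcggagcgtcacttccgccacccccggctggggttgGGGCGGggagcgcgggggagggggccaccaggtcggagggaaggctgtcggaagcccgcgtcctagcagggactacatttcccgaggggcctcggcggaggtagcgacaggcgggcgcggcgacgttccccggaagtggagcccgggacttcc
Nudt4, chr10:95026802-95027051, minus strand: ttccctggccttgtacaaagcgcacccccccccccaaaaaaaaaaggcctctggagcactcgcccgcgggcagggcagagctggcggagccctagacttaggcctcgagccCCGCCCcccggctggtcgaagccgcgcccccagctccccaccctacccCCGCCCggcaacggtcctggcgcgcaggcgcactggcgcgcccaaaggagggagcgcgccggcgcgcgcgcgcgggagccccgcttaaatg

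The GC box was found once in the windows of Socs2, Mrpl42 and Ube2n, in 2 places for Nudt4 and in 3 for Plxnc1, and was not in the window of Cradd. Among 22362 protein-coding promoters of the same length, 39.6% held it. The octamer ATGCAAAT, which Oct factors bind, was in 1.62% of them, the Sox motif CATTGT in 9.09%, the STAT motif TTCNNNGAA in 6.83% and the E-box CACGTG in 6.52%, and none of these letters was found in the 6 windows. The windows also differed in CpG dinucleotides, the sites of DNA methylation. The Plxnc1 window had 46 and those of Ube2n and Nudt4 had 31 and 29, whereas Socs2 had 15, Mrpl42 13 and Cradd 3, beside a median of 8 over all promoters.

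The libraries held 17187595 to 37951742 reads on genes, and their values were deposited as CPM, read counts scaled to library size, in 2 tables, WT to Tc 2D in one and the 4 shRNA libraries in the other, each normalized on its own. The labels were checked on the targeted genes Ruvbl1 and Pou5f1, whereas linc1253 was not analysed, so the labels of the 4 shRNA libraries were not checked in this way. OHT 3D and OHT 4D held 33.3 and 50.9 CPM of Ruvbl1 beside 198 in WT, and Tc 2D held 21.1 CPM of Pou5f1 beside 301 in WT. Ruvbl1 was also lower in the 1 Tc 2D library, at 85.0 CPM beside 166 and 186 in the control shRNA libraries, and this difference was not tested. The paper, by immunoblot and quantitative RT-PCR, reported that Oct4 depletion did not significantly change Pontin protein or mRNA. Of the ES cell markers, 12 of 13 were found in the tables, and all were above 0 in every library. They summed to 3659 to 6982 CPM in the libraries with Oct4 and to 535 CPM at Tc 2D. Of the 28 feeder fibroblast markers, 0 to 5 were at 0 in a library, and their median CPM was 1.34 to 3.14 in 5 libraries, 13.4 (OHT 3D), 17.2 (OHT 4D) and 8.07 in linc1253 shRNA replicate 2.

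All 6 genes were detected in every library, from 29 reads for Plxnc1 to 8721 for Nudt4. Per kb of annotated exon, the genes fell in the order Mrpl42, Nudt4, Ube2n, Socs2, Cradd and Plxnc1, with median levels of 149, 73.7, 53.1, 5.61, 3.53 and 0.26 CPM per kb over the 8 libraries. The level of Nudt4 ranged from 59.4 to 83.0 CPM per kb and that of Ube2n from 22.1 to 66.9. The ranges of these neighbours in the order thus overlapped, though Nudt4 stood above Ube2n within each library. Socs2, with 0.62 to 8.45 CPM per kb, and Cradd, with 2.06 to 8.30, overlapped as well. Mrpl42, which had no value under 84.2 CPM per kb, stood above all others, and Plxnc1, which had none over 0.53, stood below them. These levels span both tables and rest on the summed length of all annotated exons, which need not be the transcript that the cells made.

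**Figure D1:**
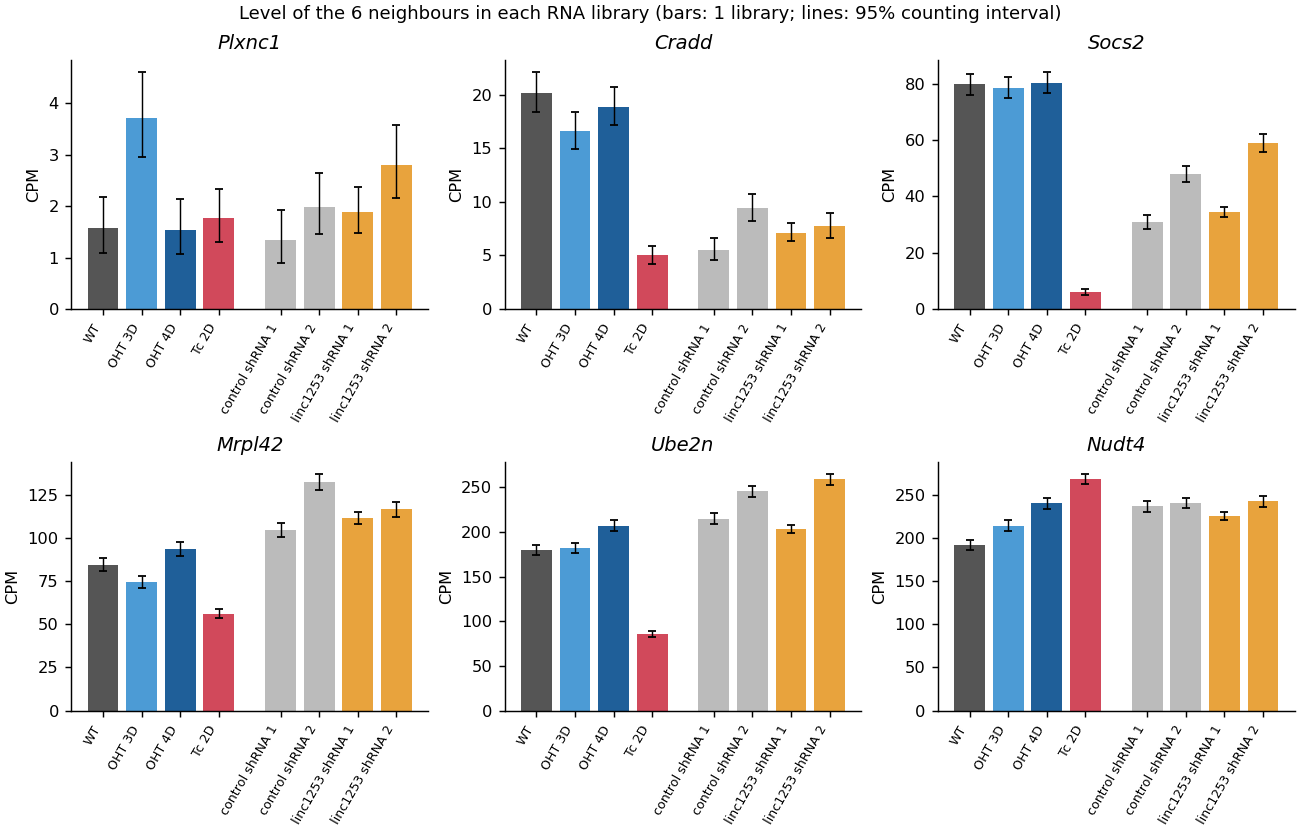
CPM of the 6 genes (y axis, a separate linear scale from 0 for each gene) in the 8 RNA libraries (x axis), in chromosome order. Bars are single libraries and lines are 95% counting intervals. Socs2 was at 5.96 CPM at Tc 2D and above 30 CPM elsewhere, whereas the control and linc1253 shRNA libraries overlapped for every gene.

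The comparison of linc1253 shRNA with control shRNA asks whether the neighbours moved when linc1253 was knocked down. None of the 6 genes passed the test without a replicate block, and the 2 linc1253 shRNA libraries overlapped with the 2 control libraries for each of them. The test was limma on log2 of CPM plus 1, with Benjamini-Hochberg adjustment over 13407 genes and a call at an adjusted p of 0.05. It called 0 of the 6 genes and 0% of all genes. The paper used a different rule, which combined the exact test of edgeR with a log2-median ratio test. By that rule it reported genes that differed after this knockdown. With the shared replicate number as a block, limma called 1 of the 6, Socs2, and 14.6% of all genes, but the labels do not say what the numbers stand for. At an unadjusted p of 0.05, 999 genes (7.45%) and 0 of the 6 passed. Among all genes tested, the groups did not overlap with knockdown higher for 18.8% and with knockdown lower for 19.2%. The median log2-fold-change was 0.02 over the 6 genes and -0.00 over all genes.

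Socs2 encodes a suppressor of cytokine signalling that restrains growth hormone and STAT5 signals. It was at 30.9 and 47.9 CPM in the control libraries and at 34.4 and 59.0 CPM in the linc1253 shRNA libraries. The second library of each group was the higher one, and the groups overlapped. Within each replicate number the linc1253 shRNA library was the higher one. Its mean was 39.4 ± 12.0 CPM in the controls and 46.7 ± 17.4 after knockdown (SD, n = 2 each), a log2-fold-change of 0.22 with a 95% confidence interval of -0.48 to 0.93 (limma adjusted p = 0.887). With the replicate block the interval was 0.09 to 0.36 (limma adjusted p = 0.0276), so the call depended on whether the numbers pair the libraries. Without the block, the log2-fold-change was -0.08 without control replicate 1, -0.16 without linc1253 shRNA replicate 2, 0.61 without linc1253 shRNA replicate 1 and 0.53 without control replicate 2.

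Mrpl42, which encodes a protein of the mitochondrial ribosome, was at 104 and 133 CPM in the controls and at 111 and 117 CPM after knockdown. Both knockdown values lay between the control values. Its means were 118 ± 19.8 and 114 ± 3.58 CPM (SD, n = 2 each), a log2-fold-change of -0.05 with an interval of -0.36 to 0.27 (limma adjusted p = 0.955). Without control replicate 2 it was 0.12, and without control replicate 1 it was -0.22.

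Cradd encodes an adaptor that joins Pidd1 to caspase-2 in the PIDDosome. It was at 5.54 and 9.38 CPM in the controls and at 7.11 and 7.76 CPM after knockdown, again with the knockdown values between the control values. The log2-fold-change was 0.03 with an interval of -0.52 to 0.59 (limma adjusted p = 0.981). Without control replicate 1 it was -0.30, and without control replicate 2 it was 0.37.

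Ube2n is the ubiquitin-conjugating enzyme Ubc13, which builds lysine 63-linked chains in DNA repair and NF-κB signalling. It was at 215 and 246 CPM in the controls and at 204 and 259 CPM after knockdown, so that the knockdown libraries were both the lowest and the highest. The log2-fold-change was -0.00 with an interval of -0.33 to 0.33 (limma adjusted p = 0.998). Leaving out a library gave -0.17 (without linc1253 shRNA replicate 2) to 0.17 (without linc1253 shRNA replicate 1).

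Nudt4 encodes a hydrolase of diphosphoinositol polyphosphates. It was at 236 and 240 CPM in the controls and at 225 and 242 CPM after knockdown, with the lowest and the highest value again after knockdown. Its log2-fold-change of -0.03 had the narrowest interval of the 6 genes, from -0.24 to 0.18 (limma adjusted p = 0.956). Leaving out a library gave -0.08 (without linc1253 shRNA replicate 2) to 0.02 (without linc1253 shRNA replicate 1).

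Plxnc1 is a plexin receptor for the semaphorin Sema7a. It was at 1.34 and 1.98 CPM in the controls and at 1.88 and 2.81 CPM after knockdown, with 29 reads in the lowest library. Among the 4 libraries the highest value stood in linc1253 shRNA replicate 2, as for Socs2, Ube2n and Nudt4, whereas for Mrpl42 and Cradd it stood in control replicate 2. Feeder fibroblast markers were also highest in linc1253 shRNA replicate 2, and primitive endoderm markers summed to 28.7 CPM there beside 12.6 to 16.7. The part of that library's other cells in these values was not tested. Within each replicate number the linc1253 shRNA library was the higher one, as for Socs2. The log2-fold-change was 0.33 with an interval of -0.18 to 0.84 (limma adjusted p = 0.754). It ran from 0.13 without linc1253 shRNA replicate 2 to 0.53 without linc1253 shRNA replicate 1. With the replicate block the interval was 0.02 to 0.63, which left out 0, but Plxnc1 was not called (limma adjusted p = 0.141). Without the block, the intervals of Mrpl42, Ube2n and Nudt4 lay within 0.58 of 0 on both sides. Those of Socs2, Cradd and Plxnc1 reached beyond 0.58 on at least 1 side. With the block, those of Socs2 (0.09 to 0.36) and Cradd (-0.23 to 0.30) also lay within 0.58, and that of Plxnc1 still reached beyond it.

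**Figure D2:**
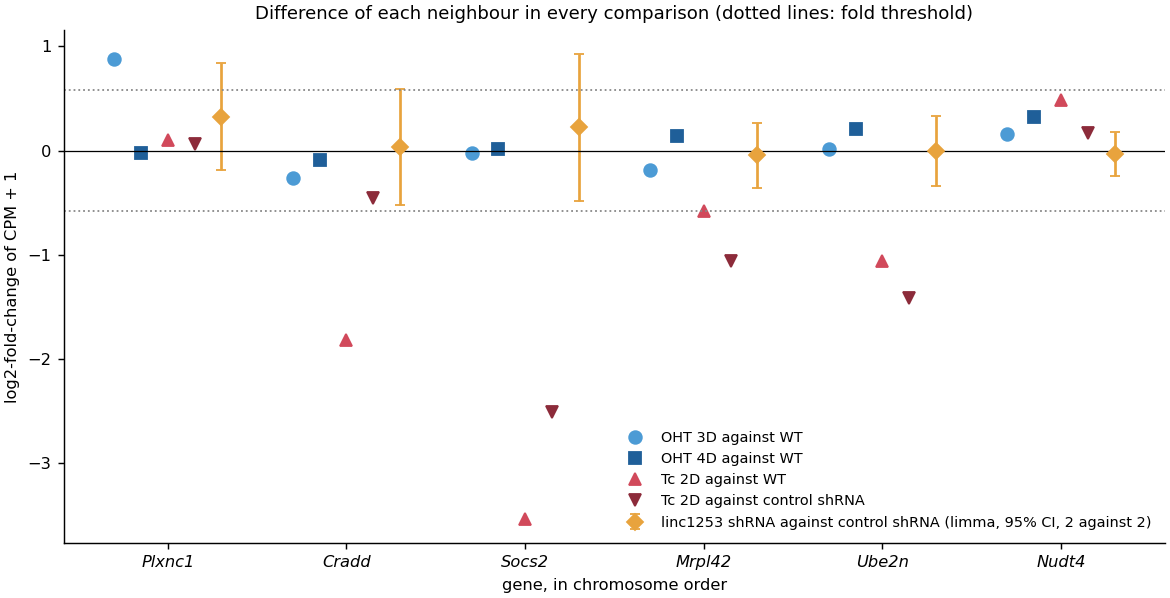
Log2-fold-change of CPM plus 1 (y axis) of the 6 genes (x axis, in chromosome order) in each comparison. Single symbols compare Tc 2D, OHT 3D or OHT 4D, 1 library each, with a control and have no replicate check, diamonds are limma estimates of linc1253 shRNA against control shRNA with 95% confidence intervals, and dotted lines mark the threshold of 0.58. Socs2 lay at -3.54 and -2.50 after Oct4 depletion, and every knockdown interval, drawn without a replicate block, covered 0.

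The comparison of Tc 2D with WT asks whether the neighbours moved when Oct4 was lost, and Socs2, Cradd and Ube2n were lower. With 1 library per condition there was no test, and a log2-fold-change of CPM plus 1 beyond 0.58 in either direction counted as a call. By this rule 3 of the 6 genes were called down and 0 up, beside 25.8% of all 13449 expressed genes down and 23.9% up. Their median log2-fold-change was -0.82 and that of all genes was -0.06. The Tc 2D library came from ZHBTc4 cells and the WT library from the other line, so depletion and line cannot be told apart in this comparison, and in bulk RNA fewer cells of a type cannot be told apart from less RNA per cell. Each gene is therefore also given against the control shRNA libraries of the ZHBTc4 line, which were normalized in the other table, infected and selected. Against these, 3 of the 6 genes were called down and 0 up, beside 30.7% of all genes down and 18.3% up. Placing all 8 libraries on one median-ratio scale changed that background to 24% down and 24.1% up and raised each of the 6 log2-fold-changes against the ZHBTc4 control, that of Socs2 from -2.50 to -2.33, without changing which were called.

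Socs2 showed the largest difference. WT, OHT 3D and OHT 4D held 79.9, 78.7 and 80.5 CPM, whereas Tc 2D held 5.96 CPM, or 169 reads. The log2-fold-change of Tc 2D was -3.54 against WT, a 13.4-fold lower CPM, and 0.52% of expressed genes had a lower value. Against the control shRNA libraries it was -2.50, a 6.61-fold lower CPM, and it was -2.20 against control replicate 1 and -2.81 against replicate 2. Tc 2D was thus below every other library. The undepleted libraries also differed, since on one scale over the 8 libraries Socs2 was at 28.7 and 44.7 in the control shRNA libraries and at 83.9 in WT, a log2 ratio of -1.19. Line, lentiviral infection and selection cannot be told apart in that ratio.

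Ube2n was at 180 CPM in WT and 85.5 CPM at Tc 2D, the lowest of the 8 libraries, with all others between 180 and 259 CPM. Its log2-fold-change was -1.06 against WT and -1.42 against the control shRNA libraries. Both controls gave a value past the threshold.

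Mrpl42 was at 84.4 CPM in WT and 56.1 CPM at Tc 2D, which was again the lowest library. Its log2-fold-change of -0.58 against WT (-0.5799) fell just short of the threshold, and it was past it with a pseudocount of 0.5 (-0.584). Against the control shRNA libraries it was -1.06, with a 2.11-fold lower CPM.

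For Cradd the values were 20.2 (WT), 16.6 (OHT 3D), 18.9 (OHT 4D) and 5.00 CPM (Tc 2D), with the last the lowest of the 4. The log2-fold-change against WT was -1.82, a 4.03-fold lower CPM. In the control shRNA libraries, which had no tetracycline, the gene was at 5.54 and 9.38 CPM, and the log2-fold-change against these libraries was -0.46, under the threshold. It was -0.12 against control replicate 1 and -0.79 against replicate 2. On one scale it was -0.29, and Tc 2D, at 5.32, lay above control replicate 1, at 5.15. On one scale the log2 ratio of the control shRNA libraries to WT was -1.61, the largest in size of these ratios among the 6 genes.

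Nudt4 and Plxnc1 did not pass the threshold against either control. Nudt4 had 192 (WT), 214 (OHT 3D), 240 (OHT 4D) and 268 CPM (Tc 2D), the last its highest value in the 8 libraries. Its log2-fold-changes at Tc 2D were 0.48 against WT and 0.17 against the control shRNA libraries. Plxnc1 was at 1.56 CPM in WT and 1.76 CPM at Tc 2D, a log2-fold-change of 0.11. The values of Nudt4 and Ube2n, which converge on each other, thus had opposite signs. At Tc 2D the ES cell markers were also lower, with 11 of 12 called down against WT, and all 7 expressed trophectoderm markers were called up. Of 25 feeder fibroblast markers 5 were called up and 10 down against WT, and of 20 against the control shRNA libraries 1 was called up and 11 down. Of the primitive endoderm markers, 3 of 6 were called up against WT and 4 of 5 against the control shRNA libraries. Their part in the values of the 6 genes was not tested.

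The comparisons of OHT 3D and OHT 4D with WT ask whether the neighbours moved when Pontin was depleted. Socs2, Mrpl42, Cradd, Ube2n and Nudt4 stayed under the threshold at both times, and Plxnc1 passed it at OHT 3D alone. Both comparisons, and that of Tc 2D, share the WT library. For OHT 3D, 1 of the 6 genes was called up and 0 down, beside 6.01% of all genes up and 5.88% down. At OHT 4D, 0 of the 6 were called in either direction, beside 6.48% up and 8.89% down. The medians over the 6 genes were -0.00 and 0.08, and those over all genes -0.02 and -0.00.

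Socs2, the bordering gene with its promoter in the interval, had a log2-fold-change of -0.02 (OHT 3D) and 0.01 (OHT 4D). The 95% counting intervals of its log2 CPM ratio were -0.12 to 0.07 and -0.08 to 0.11. Mrpl42, with 74.2 CPM (OHT 3D) and 93.3 CPM (OHT 4D), had -0.18 and 0.14, on either side of WT. Counting intervals leave out the spread between cultures, which 1 library per time point cannot give.

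The values of Cradd were -0.27 (OHT 3D) and -0.09 (OHT 4D). Ube2n, at 182 and 207 CPM, had 0.02 and 0.20, and Nudt4 had 0.16 and 0.32. Plxnc1 had 1.56 (WT), 3.71 (OHT 3D) and 1.53 CPM (OHT 4D). The value at OHT 3D rested on 82 reads, and the log2-fold-change of 0.88 became 0.56 with a pseudocount of 3, under the threshold. The feeder fibroblast markers were called up for 20 of 25 expressed genes at OHT 3D and for 22 of 25 at OHT 4D, where Plxnc1 had a log2-fold-change of -0.02. Of 6 expressed primitive endoderm markers, 3 and 6 were called up at these times. Of 7 expressed trophectoderm markers, 5 were called up and 1 down at OHT 3D and 6 up at OHT 4D, with sums of 51.7 (WT), 129 (OHT 3D) and 299 CPM (OHT 4D). The part of these lists in the value of Plxnc1 was not tested.

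By position, 10 genes of the tables lay with their whole body within 1 Mb of the interval, of which 8 passed the filter on low values. The 2 that are not among the 6 described were Ccdc41 at -626.7 kb, on the Plxnc1 side and Eea1, an early endosome antigen, at 460 kb on the Nudt4 side. Eea1 was called down at OHT 4D (log2-fold-change -0.92) and up at Tc 2D against WT (0.58), and Ccdc41 was called up at Tc 2D against the control shRNA libraries (0.61). Counting every comparison, 7 of the 8 genes were called at least once, beside 69.1% of all genes. At Tc 2D against WT, Socs2, Mrpl42, Ube2n and Cradd had negative values, where the median over all genes was -0.06. Nudt4, which lay closer to the interval than Cradd, had a positive value. Depletion and line cannot be told apart there, and against the control shRNA libraries Cradd, at -0.46, was not called. A link with distance was not tested. After linc1253 knockdown, without a replicate block, 0 of the 8 genes were called, beside 0% of all genes. Their log2-fold-changes ran from -0.05 to 0.33. With the block Socs2 was called among the 6 genes described, beside 14.6% of all genes. The results of Ccdc41 and Eea1 with the block are not given here.

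**Figure D3:**
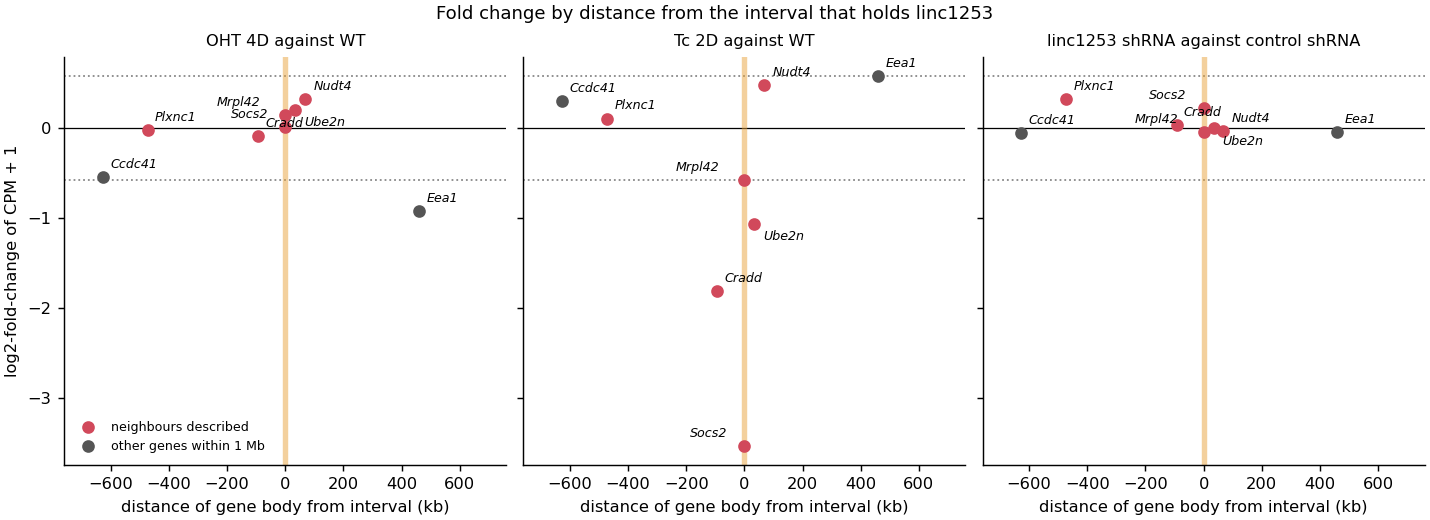
Log2-fold-change of CPM plus 1 (y axis) of the 8 expressed genes within 1 Mb against the distance of the gene body from the interval (x axis, in kb, negative on the Socs2 side) for OHT 4D, Tc 2D and linc1253 knockdown. Red points are the 6 genes described, grey points are Ccdc41 and Eea1, the orange line is the interval, and dotted lines mark 0.58 on either side of 0. Socs2 at -3.54 and Nudt4 at 0.48 lay within 66.2 kb of the interval at Tc 2D.

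Genes that work with the neighbours elsewhere in the genome were counted in the same way. Of the other SOCS family members and growth hormone signalling genes, 10 of 10 were expressed, and at Tc 2D against WT 2 were called up and 0 down, beside 23.9% of all genes up and 25.8% down, so that the share called up was near that of all genes. Ghr, the growth hormone receptor, had a log2-fold-change of 2.64 and Socs3 one of 0.89. Against the control shRNA libraries Ghr had 1.94 and Socs3 -0.40. After linc1253 knockdown none of the 10 was called without a replicate block, beside 0% of all genes.

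Of the other proteins of the large mitochondrial ribosomal subunit, 45 were expressed. At Tc 2D, 16 of the 45 were called down and 0 up against WT, and 26 were called down and 0 up against the control shRNA libraries, beside 25.8% and 30.7% of all genes called down. The medians over the 45 were -0.50 and -0.62, and those over all genes were -0.06 and -0.17. On one scale over the 8 libraries the 26 became 15, beside 24% of all genes, and the median became -0.43, beside 0.00 over all genes. Mrpl42, with -0.58 and -1.06, was lower than both medians. The lowest were Mrpl36, Mrpl50 and Mrpl34, with log2-fold-changes of -2.47, -2.45 and -1.57 against WT. At OHT 3D and OHT 4D, 0 of the 45 were called, beside 6.01% and 6.48% of all genes up and 5.88% and 8.89% down. After linc1253 knockdown 0 of the 45 were called without a replicate block, beside 0% of all genes.

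Of 8 genes for partners of Ube2n in lysine 63 chains, 7 were expressed. Ube2v2, whose product forms the chain-building enzyme together with Ube2n, was at 75.3 CPM in WT and 33.8 CPM at Tc 2D, a log2-fold-change of -1.13 beside the -1.06 of Ube2n. Against the control shRNA libraries these values were -1.21 and -1.42. Rad18, the ubiquitin ligase that marks PCNA, was the other gene called down at Tc 2D against WT (-0.73), which makes 2 of 7 beside 25.8% of all genes. Against the control shRNA libraries Rad18 had -0.43 and was not called. At OHT 4D the ligase genes Shprh (-0.80) and Hltf (-0.72) were called down, beside 8.89% of all genes.

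For Cradd, Casp2 and Ripk1 were found of a list of 3. Casp2 had a log2-fold-change of -0.22 at Tc 2D against WT, where Cradd had -1.82. Ripk1, at 9.30 CPM in WT and 17.6 CPM at OHT 3D, was called up there (0.85), whereas at OHT 4D it was at 8.32 CPM (-0.14). After linc1253 knockdown its log2-fold-change was 0.54 (limma adjusted p = 0.597).

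Of 7 enzymes of diphosphoinositol metabolism beside Nudt4, 2 were called up and 1 down at Tc 2D against either control, beside 23.9% of all genes up and 25.8% down against WT and 18.3% up and 30.7% down against the control shRNA libraries. The kinase genes Ppip5k1 and Ip6k2 had 1.11 and 0.87 against WT, and Ppip5k2 had -0.69. Nudt3, a hydrolase of the same family as Nudt4, had -0.50. Of the plexins and Sema7a, 7 were expressed, and 2 were called up and 2 down at Tc 2D against WT, where 23.9% of all genes were called up and 25.8% down. Sema7a, the ligand of Plxnc1, had 4.25 (WT), 9.05 (OHT 3D) and 8.89 CPM (OHT 4D), and was called up at both times (0.94 and 0.91), beside 6.01% and 6.48% of all genes.

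Across the 8 libraries, with log2 of CPM plus 1 centred within each table, the genes with patterns most like a neighbour were searched among the 10429 whose mean CPM reached 5. For Socs2 these were Gadd45a, Tgif1 and Dstn, with Pearson correlations of 0.998, 0.998 and 0.996. For Mrpl42 they were Akirin2 (0.997), Psma3 and BC056474, for Cradd they were Hnrpll (0.997), Ltv1 and Ssrp1, and for Ube2n they were S100a11 (0.997), Polr3d and Pdhb. Nudt4 was most like Krt7, Syde1 and F3 (0.981, 0.981 and 0.980), and Plxnc1 most like Lztfl1, Zfp947 and Smg6. Among the 6 genes, Socs2 correlated with Ube2n at 0.984, with Cradd at 0.971, with Mrpl42 at 0.866, with Plxnc1 at 0.283 and with Nudt4 at -0.70. All of these values share the libraries, 1 of which is Tc 2D. Without Tc 2D the values of Socs2 among the 6 genes were, in the same order, 0.822, 0.689, 0.502, 0.497 and 0.242.

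The ChIP libraries held 40729076 Pontin and 17185883 GFP reads, and they ask whether Pontin lay on the neighbours' promoters. In windows that ran from 2.5 kb before the start site to 500 b after it, the Pontin and GFP reads were 123 and 47 for Socs2, 100 and 21 for Mrpl42, 103 and 47 for Cradd, 117 and 43 for Ube2n, 111 and 28 for Nudt4, and 56 and 38 for Plxnc1. Scaled by library size, Pontin over GFP gave log2 ratios of 0.95 at Mrpl42, 0.70 at Nudt4, 0.18 at Ube2n, 0.12 at Socs2, -0.13 at Cradd and -0.70 at Plxnc1. The files list both mates of a DNA fragment as separate reads, so intervals were taken from fragments, of which there were 23318380 and 10477463. Mrpl42, with 56 Pontin and 11 GFP fragments, had a log2 ratio of 1.09 with a 95% counting interval of 0.25 to 2.28, and the intervals of the other 5 promoters covered 0. By fragments the signs of Ube2n and Cradd turned, to -0.08 and 0.06, which put Ube2n below Socs2 and Cradd. The median over 21186 promoters was 0.30 by reads, a value inside the interval of Mrpl42. Mrpl42 stood above 86.3% of them and Plxnc1 above 6.50%, so that the 6 spread over most of the range. With 1 library per antibody there was no test.

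The ratios depended on the window. Within 1 kb of the start site on either side the reads were 84 and 7 at Ube2n and 54 and 8 at Plxnc1. Their log2 ratios became 2.16 and 1.37, beside a median of 0.46 over all promoters, whereas Mrpl42 kept 0.96. With mates as separate reads, the 95% counting intervals were 1.23 to 3.70 at Ube2n and 0.43 to 2.79 at Plxnc1. Ube2n then stood above 98.5% of promoters and Plxnc1 above 89.4%. In the wider windows of these 2 genes most GFP reads therefore lay more than 1 kb from the start site. With 1 read per position and strand, the ratios in the wider window were 1.00 at Nudt4, 0.76 at Mrpl42 and 0.70 at Ube2n, so that Nudt4 stood above Mrpl42. Their 95% counting intervals, which take mates as separate reads, were 0.33 to 1.88, 0.12 to 1.57 and 0.07 to 1.49, and those of the other 3 covered 0. The median over all promoters was 0.24 in this setting, a value inside the intervals of Mrpl42 and Ube2n and below that of Nudt4.

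Over the whole interval between Socs2 and Mrpl42 there were 1494 Pontin and 703 GFP reads, which is 36.7 and 40.9 RPM (reads scaled to library size) and a log2 ratio of -0.16. By fragments, 882 and 441, the 95% counting interval ran from -0.32 to 0.01. The paper, by ChIP and quantitative PCR, reported Pontin at the Oct4-binding site of linc1253. A ratio over the whole interval cannot show or exclude binding at a single site. Of 127 windows of 500 b, with medians of 11 Pontin and 5 GFP reads, the window with the most Pontin reads (42 against 4 GFP reads) began 49.5 kb from the Socs2 end. With 1 read per position and strand it had 27 against 1. The next highest window, 1 kb from the Socs2 start site, had 38 against 7, and 18 against 5 with 1 read per position and strand. The middle 300 bases of the highest window are shown because they hold long runs of simple repeats. Capitals mark the E-box CACGTG, which was found 2 times.

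Window of the interval, chr10:94929415-94929714, plus strand: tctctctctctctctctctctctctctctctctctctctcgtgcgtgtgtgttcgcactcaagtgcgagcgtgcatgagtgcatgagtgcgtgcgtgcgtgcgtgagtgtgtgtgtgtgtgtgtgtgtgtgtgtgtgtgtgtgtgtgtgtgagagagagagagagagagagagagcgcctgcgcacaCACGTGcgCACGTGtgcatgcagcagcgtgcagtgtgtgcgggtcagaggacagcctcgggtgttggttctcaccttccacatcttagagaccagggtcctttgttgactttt

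Its longest run of TC repeats was 40 bases, of TG repeats 44 and of GA repeats 24. The window was chosen for its reads, so its ratio of 1.86 is a description.

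**Figure D4:**
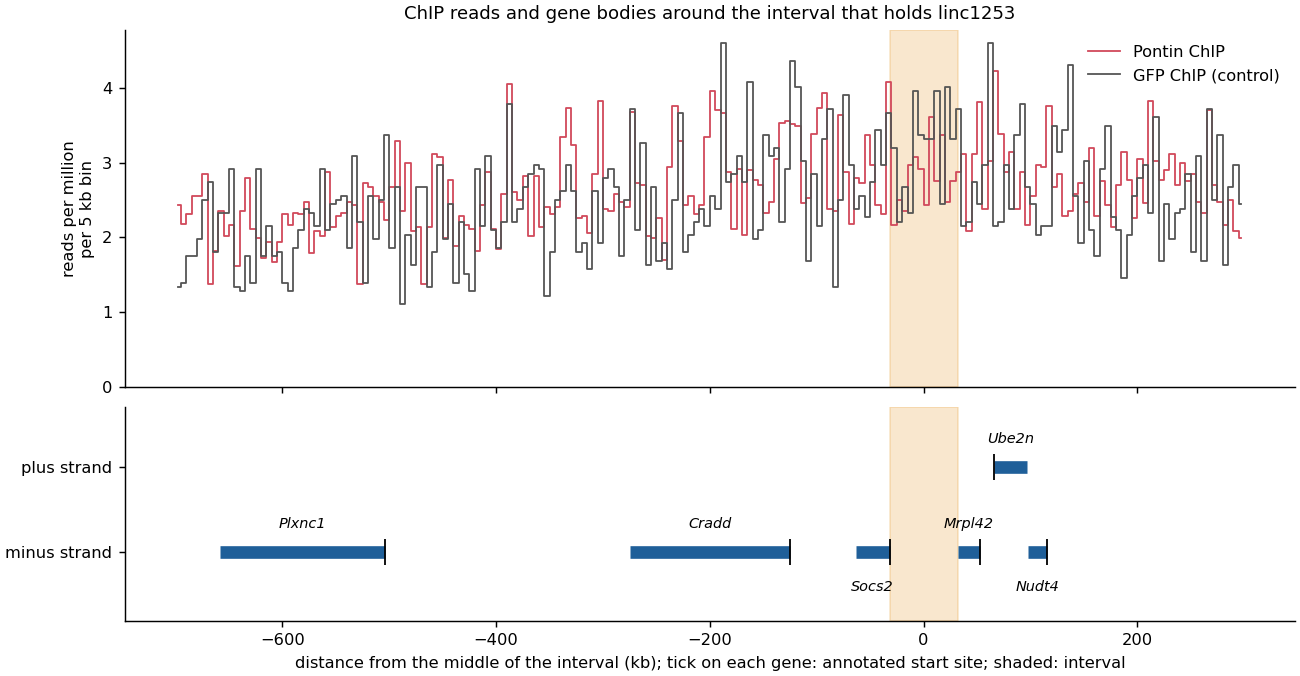
Pontin and GFP ChIP reads, as RPM, in bins of 5 kb (upper panel, y axis) and the bodies of the 6 genes by strand (lower panel) against the distance from the middle of the interval (x axis, kb). The interval is shaded, and a tick marks the annotated start site of each gene. In bins of this size, reads of both antibodies ran at a similar height across the neighbourhood, with 36.7 and 40.9 RPM over the interval.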

How the data were processed

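Per the study's methods and the labels' processing notes, the authors trimmed the mRNA reads, used TopHat on NCBIM37 and HTSeq for the counts, and deposited CPM after TMM normalization in edgeR, in 2 tables normalized separately. Tool versions, and whether counting used strand, are not given in the sources used here. Low values showed a fixed step per library, and 100% of CPM came out as whole reads within 0.01 read. Symbols matched 22337 of 22713 IDs. The deposited ChIP files hold the reads that Bowtie2 placed, each on a line that ends in its mapping quality score and strand.

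The 6 genes and all lists were chosen with earlier results of these data known. Genes above 1 CPM in at least 1 library of the comparison were kept, and a pseudocount of 1 was added. The knockdown was tested with limma 3.58.1 (trend) in R 4.3.3 over all genes; on recovered reads, DESeq2 1.42.0 and edgeR 4.0.16 served as alternatives. ChIP reads were counted by their 5′ end, plus 1 for ratios, and fragments by read name, since mates of a pair are separate lines. Positions came from the GENCODE annotation of NCBIM37. Named genes were the 6, called genes within 1 Mb, up to 3 per partner list by size, Ruvbl1, Pou5f1 and the 3 most alike patterns; not all are printed. Scripts were tested on simulated data. Intervals are exact binomial (95%) or, for single CPM values, exact Poisson, and hold for counting error alone, because PCR reads are not separate molecules. Python 3.11.15 was used. Alternatives were other tests, pseudocounts, filters, scalings, controls, windows and leaving out each library.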

Additional observations from a re-analysis of the deposited data

Results flagged for a closer look

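For 3 genes the log2-fold-changes at OHT 3D and OHT 4D had opposite signs in the single library of each time point, and the difference was not tested. OHT 3D minus OHT 4D was 0.89 for Plxnc1 (0.88 and -0.02), -0.33 for Mrpl42 (-0.18 and 0.14) and -0.033 for Socs2 (-0.02 and 0.01). Of these values only that of Plxnc1 at OHT 3D was past 0.58, at 3.71 CPM.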

How the results depend on the processing

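Of 238 values under alternatives, 201 kept their direction and side of the threshold, moved by less than their counting interval or, for counts of genes, stayed within 1.5 times. A count does not say which genes: at Tc 2D against WT a pseudocount of 0.5 added Mrpl42 to the 3 genes called, and against the control shRNA libraries the 3 held Mrpl42 in place of Cradd. For linc1253 knockdown, the 6 genes gave 0 calls by edgeR's quasi-likelihood test, DESeq2, the exact test of edgeR and each fit that left out a library, while all genes gave 0 by the quasi-likelihood test, 50 by DESeq2, 80 by the exact test and 0 to 19 with a library left out (19 without linc1253 shRNA replicate 1, 4 without control replicate 2). Replicate numbers are shared by both groups, but nothing says what they stand for. Same-numbered deviations from the group means correlated at 0.673 over 13407 genes. With 2 libraries per group, swapping the numbers in 1 group would only turn the sign of this value, so it cannot show what the numbers stand for. With the replicate block limma called 1960 genes and 1 of the 6, Socs2 (log2-fold-change 0.22, limma adjusted p = 0.0276). Leaving out a library gave log2-fold-changes of -0.16 to 0.61 for Socs2, -0.22 to 0.12 for Mrpl42, -0.30 to 0.37 for Cradd, -0.17 to 0.17 for Ube2n, -0.084 to 0.023 for Nudt4 and 0.13 to 0.53 for Plxnc1, which kept its sign. The sign turned without control replicate 1 or linc1253 shRNA replicate 2 for Socs2 and Cradd, without control replicate 2 for Mrpl42, without control replicate 2 or linc1253 shRNA replicate 1 for Ube2n, and without linc1253 shRNA replicate 1 for Nudt4. The sign of Cradd turned to -0.01 by the quasi-likelihood test, DESeq2 and the exact test (-0.0090, -0.0054 and -0.0076), and that of Ube2n to 0.0045, 0.0075 and 0.0047. The causes were not tested.

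At OHT 3D, 0 of the 6 genes were called with a pseudocount of 3 or above a log2-fold-change of 1. Within 0.5 Mb of the interval 4 of 5 genes were called at least once, and within 2 Mb 20 of 22, beside 69.1% of all genes. Scaling by the median ratio over promoters, which shifts every ChIP ratio by 0.30, moved the median over the 6 promoters from 0.15 to -0.14 and the interval to -0.45. Windows of 1 kb to each side of the start moved that median to 0.66. The scale that joins both tables, on which 15 rather than 26 of the 45 mitochondrial ribosomal genes were called against the control shRNA libraries, and the count of ChIP fragments were chosen after seeing the data. Plxnc1, with 29 to 82 reads, is the gene that depth limits most.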
